A study of Mus musculus with 6 samples.

Results

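The 10 genes analysed belong to the alpha and beta tubulin families and were followed in hearts of mouse embryos at E18.5, shortly before birth. The members were the rows of the deposited FPKM table (fragments scaled by transcript length and sequencing depth) with the symbols Tuba1a, Tuba1b, Tuba1c, Tuba4a, Tubb2a, Tubb2b, Tubb3, Tubb4b, Tubb5 and Tubb6. All 10 were found among the 24421 genes of the table, 4 alpha and 6 beta isotypes. Of the 6 libraries 3 came from Gas2l3 -/- hearts and 3 from wildtype hearts, all of strain C57/Bl6, and the study addressed cell division in heart muscle cells lacking Gas2l3. Poly(A) RNA of whole hearts was sequenced. The labels do not say how the Gas2l3 allele was made, which exons it lacks, or whether 2 libraries can come from 1 embryo. The p-values here cover the variation among these 6 libraries, and that may be technical. In a whole heart, fewer cells of a type and less RNA per cell cannot be told apart.

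Microtubules are built from dimers of 1 alpha and 1 beta tubulin, each encoded by several genes whose proteins, called isotypes, differ mostly in their acidic tails. Those tails face outward and bind motors and microtubule-associated proteins. In heart muscle, microtubules carry cargo, bear load beside the sarcomeres, and form the spindle and the midzone in cells that still divide. Gas2l3 is a member of the growth arrest-specific 2 family that binds both actin and microtubules and acts in cytokinesis. Tubulin messages are also held in balance by autoregulation, in which free tubulin dimers lead to decay of tubulin mRNA during translation.

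Libraries held 5964785, 5514800 and 6483168 recovered reads for Gas2l3 -/- replicates 1 to 3, and 3414257, 7605745 and 7732674 reads for wildtype replicates 1 to 3. Gas2l3 itself had 4.03, 2.99 and 3.06 FPKM in the Gas2l3 -/- libraries, against 10.3, 4.12 and 2.48 FPKM in the wildtype libraries. The value of wildtype replicate 3 lies below every Gas2l3 -/- value and so goes against its label, and that library is called here the library labelled wildtype 3. It also stood apart over all genes: its mean correlation with the other libraries was 0.899, against 0.935 to 0.957 for the other 5 libraries. Its deviations from the gene means followed GC content with r = 0.702 across genes, which are not independent replicates. In the other 5 libraries r with GC content ran from −0.481, in Gas2l3 -/- replicate 1, to −0.071, in wildtype replicate 2. Trends on length reached r = −0.413, in Gas2l3 -/- replicate 2. After removal of each library's trends on GC content and length, Gas2l3 was lower in all 3 Gas2l3 -/- libraries than in any wildtype library, at −0.65 on the log2 scale (SE 0.23, adjusted p = 0.572 by limma). Values without the library labelled wildtype 3 are given beside the results that it moved most. Cardiomyocyte markers were abundant in every library, with summed levels of 32652 to 37498 FPKM in Gas2l3 -/- hearts and 37121 to 54084 FPKM in wildtype hearts.

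Several of the isotype genes lie beside each other and are close copies, which sets how well their reads can be told apart. On GRCm38, Tuba1b (chr15:98931425-98934565, minus strand) lies 15.3 kb from Tuba1a (chr15:98949837-98953703, minus), and Tuba1c (chr15:99029891-99038110, plus) lies 76.2 kb further on. Tubb2a (chr13:34074274-34078007, minus) and Tubb2b (chr13:34126748-34130466, minus) are separated by 48.7 kb. The coding sequences of Tuba1a and Tuba1b were the same at 98.3% of 1356 bases, and those of Tubb2a and Tubb2b at 96.5% of 1338 bases. The last 60 coding bases of Tubb2a and Tubb2b, which encode the tail, are shown because the shares of both neighbours did not overlap between the groups. Capitals mark the 3 bases that differ between them. Read in frame from the stop codon, none of the 3 changes the encoded amino acid, so both genes encode the same tail here.
Tubb2a: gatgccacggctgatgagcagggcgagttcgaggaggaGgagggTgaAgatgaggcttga
Tubb2b: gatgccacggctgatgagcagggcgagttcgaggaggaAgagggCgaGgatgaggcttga

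Of all stretches of 50 bases in the transcript of Tuba1b, 64.6% also occur in another isotype, and for Tuba1a and Tuba1c the shares were 52.0% and 59.8%. For Tubb2a and Tubb2b they were 45.6% and 33.4%. For Tubb5 the share was 0.0385%, and Tuba4a, Tubb3, Tubb4b and Tubb6 shared none. The sources used here give neither the read length nor the handling of shared reads, so the split among Tuba1a, Tuba1b and Tuba1c, and between Tubb2a and Tubb2b, is uncertain. Only these 10 genes were compared with each other, and other tubulin genes and pseudogenes were not searched.

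The promoters of Tubb5, Tuba1b and Tubb2a are shown, the 3 isotypes furthest from 0 after removal of the GC and length trends. The sequences run from 250 bases before to 50 bases after the start, from RefSeq on GRCm38.p6, where 8 of the 10 isotypes had an entry and Tubb2b and Tubb6 did not. Capitals mark matches on either strand to 4 motifs, which do not overlap here. CCAAT, bound by the NF-Y complex, occurs in 37.4% of all 32851 promoters of this length. GGGCGG, bound by Sp1 and its relatives, occurs in 35.7%. TATAAA, bound by the TATA-binding protein, occurs in 13.6%. TTTGAA, the cell cycle genes homology region, occurs in 17.9%. They are Tubb5 (chr17:35838252-35838551, minus), Tuba1b (chr15:98934341-98934640, minus) and Tubb2a (chr13:34077959-34078258, minus).
Tubb5: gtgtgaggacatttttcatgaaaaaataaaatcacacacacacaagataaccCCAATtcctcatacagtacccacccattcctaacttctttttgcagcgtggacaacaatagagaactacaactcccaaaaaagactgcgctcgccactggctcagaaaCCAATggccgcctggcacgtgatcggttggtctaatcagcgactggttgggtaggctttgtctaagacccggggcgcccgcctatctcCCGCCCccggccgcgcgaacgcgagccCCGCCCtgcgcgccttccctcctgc
Tuba1b: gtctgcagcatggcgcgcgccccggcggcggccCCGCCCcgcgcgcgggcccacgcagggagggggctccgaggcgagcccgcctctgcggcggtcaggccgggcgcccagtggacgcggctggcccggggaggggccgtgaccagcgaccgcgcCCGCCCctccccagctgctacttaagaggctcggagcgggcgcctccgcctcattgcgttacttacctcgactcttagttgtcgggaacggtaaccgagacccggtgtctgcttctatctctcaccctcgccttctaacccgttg
Tubb2a: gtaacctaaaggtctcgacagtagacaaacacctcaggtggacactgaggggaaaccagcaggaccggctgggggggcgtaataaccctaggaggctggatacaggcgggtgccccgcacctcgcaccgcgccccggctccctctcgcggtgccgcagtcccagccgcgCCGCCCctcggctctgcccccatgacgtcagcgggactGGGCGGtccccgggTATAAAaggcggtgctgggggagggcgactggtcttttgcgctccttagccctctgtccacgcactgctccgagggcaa

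The Tubb5 window held 2 CCAAT and 2 GC boxes, the Tuba1b window 2 GC boxes, and the Tubb2a window 2 GC boxes and 1 TATA box. None of the 3 windows held TTTGAA, which among the 8 isotypes was found in that of Tubb4b. These are matches of letters and not binding sites.

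On GRCm38 the other isotypes each lie on a chromosome without another of these isotypes. They are Tuba4a (chr1:75214228-75219865, minus), Tubb4b (chr2:25222160-25224702, minus), Tubb3 (chr8:123411424-123422015, plus), Tubb5 (chr17:35833921-35838306, minus) and Tubb6 (chr18:67390717-67402749, plus). Each name stands for the whole gene, since FPKM were given per gene.

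Among the alpha isotypes, Tuba1a, the form that predominates in developing neurons, had 124, 149 and 153 FPKM in Gas2l3 -/- hearts, against 106, 131 and 250 FPKM in wildtype hearts. Tuba1b, a widely expressed form that is abundant in dividing cells, had 79.9, 107 and 85.4 FPKM in Gas2l3 -/- hearts, against 102, 149 and 301 FPKM in wildtype hearts. Replicate by replicate Tuba1b was lower in the Gas2l3 -/- library in 3 of 3 pairs, as were Tubb5 and Tubb6, although its groups overlapped. Tuba4a, an alpha form found in muscle, brain and platelets whose message ends without the C-terminal tyrosine codon, had 46.3, 52.7 and 53.1 FPKM in Gas2l3 -/- hearts, against 34.0, 42.5 and 73.3 FPKM in wildtype hearts. Tuba1c, another widely expressed form, was the lowest of the alpha isotypes, at 21.1 ± 0.732 FPKM in Gas2l3 -/- hearts and 27.8 ± 14.9 FPKM in wildtype hearts (SD, n = 3 each).

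Among the beta isotypes, Tubb5, the main beta form of most embryonic tissues, had 390, 386 and 415 FPKM in Gas2l3 -/- hearts, against 427, 531 and 951 FPKM in wildtype hearts. All 3 Gas2l3 -/- values lay below all 3 wildtype values. Tubb2a, a beta form of nerve and muscle, had 61.7, 65.2 and 68.9 FPKM in Gas2l3 -/- hearts, against 40.5, 45.4 and 70.3 FPKM in wildtype hearts. Its neighbour Tubb2b, best known from migrating neurons, had 68.6, 68.7 and 78.4 FPKM in Gas2l3 -/- hearts, against 52.5, 61.4 and 82.8 FPKM in wildtype hearts. For both neighbours the library labelled wildtype 3 was the highest of the 6 and the other 2 wildtype libraries lay below every Gas2l3 -/- library. Tubb4b, a broadly expressed form also used in cilia, averaged 102 ± 7.05 FPKM in Gas2l3 -/- hearts and 121 ± 32.8 FPKM in wildtype hearts. Tubb6, a minor beta form of muscle and other tissues, averaged 72.8 ± 2.12 FPKM in Gas2l3 -/- hearts and 98.4 ± 38.6 FPKM in wildtype hearts (SD, n = 3 each). Tubb3, the beta form of neurons, had 3 to 13 reads per library and 0.897, 0.753 and 1.01 FPKM in Gas2l3 -/- hearts, against 0.464, 0.839 and 1.24 FPKM in wildtype hearts, and was too low to be tested. Markers of neurons and Schwann cells summed to 67.2 to 72.5 FPKM in Gas2l3 -/- hearts and 57.9 to 110 FPKM in wildtype hearts.

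**Figure D1:**
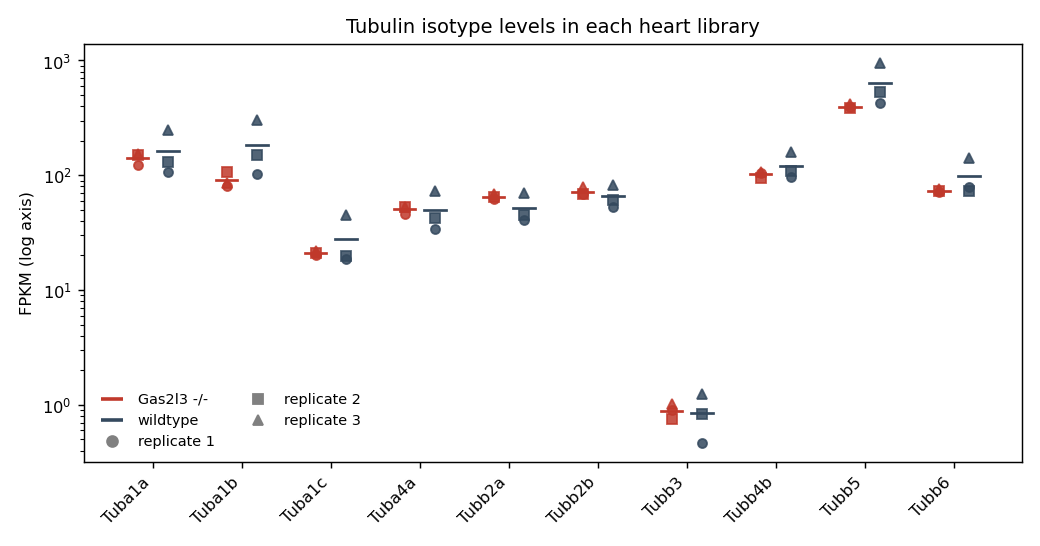
FPKM of the 10 tubulin isotypes on a log axis, 1 point per library with the marker shape giving the replicate number and a line at each group mean, Gas2l3 -/- left of wildtype. Tubb5 is the highest in both groups and Tubb3 the lowest, and the library labelled wildtype 3 is the highest of the 6 for every isotype.

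FPKM is a level per length, so isotypes can be ranked. Tubb5 was first in both groups, at 397 ± 15.4 FPKM in Gas2l3 -/- hearts and 636 ± 278 FPKM in wildtype hearts. In Gas2l3 -/- hearts Tuba1a, Tubb4b and Tuba1b followed, at 142 ± 15.7, 102 ± 7.05 and 90.7 ± 14.2 FPKM, and Tubb4b and Tuba1b overlapped. In wildtype hearts Tuba1b came next at 184 ± 104 FPKM, with Tuba1a at 162 ± 76.6 FPKM and Tubb4b after it, and these overlapped with each other. Below these both groups had the same order, Tubb6, Tubb2b, Tubb2a, Tuba4a, Tuba1c and Tubb3. In Gas2l3 -/- hearts Tubb6 overlapped with Tubb2b and Tubb2b with Tubb2a, and the steps to Tuba4a, Tuba1c and Tubb3 exceeded the spread. In wildtype hearts all neighbours from Tubb6 to Tuba1c overlapped. These overlaps are between libraries. Within every library of both groups Tubb2b exceeded Tubb2a. Within every wildtype library Tuba1a and Tuba1b exceeded Tubb4b, Tubb6 exceeded Tubb2b, and Tuba4a exceeded Tuba1c. Tubb2a and Tuba4a changed places in the library labelled wildtype 3. The 4 alpha isotypes summed to 270, 329 and 313 FPKM in Gas2l3 -/- hearts, against 261, 343 and 669 FPKM in wildtype hearts (exact permutation p = 0.5). The 6 beta isotypes summed to 698, 687 and 745 FPKM in Gas2l3 -/- hearts, against 696, 819 and 1406 FPKM in wildtype hearts (exact permutation p = 0.3). Both tests are two-sided and with 3 against 3 cannot go below 0.1. As deposited, neither sum differed beyond the spread between libraries. In an alternative not planned in advance, each library's trends on GC content and length were removed. The log2 difference was then −0.24 for alpha and −0.32 for beta, each with exact permutation p = 0.1, the smallest possible.

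None of the 9 isotypes tested was called different at an adjusted p under 0.05 in limma's test over 12121 genes, and 0.0% of all genes were called higher and 0.0% lower. At an unadjusted p under 0.05, 1.9% of genes were higher and 1.35% lower, and none of the isotypes was among them. The lowest values were Tuba1b, at −0.88 on the log2 scale (SE 0.42, adjusted p = 0.966 by limma), and Tubb5, with −0.59 (SE 0.40, adjusted p = 0.966 by limma). Tubb2a had the highest, 0.36 (SE 0.29, adjusted p = 0.966 by limma). The other 6 lay between −0.36 for Tubb6 and 0.15 for Tubb2b. Over the 9 isotypes 6 values were negative and 3 positive with a median of −0.21, beside a median of −0.0089 over all tested genes, of which 51.0% were negative. Tubb5 was the 1 isotype whose groups did not overlap, lower in Gas2l3 -/- hearts, where 4.74% of all genes did the same.

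Much of this rested on 1 library. The library labelled wildtype 3 held 1.96 times the summed tubulin FPKM of the mean of the other 2 wildtype libraries, from 1.45 times for Tubb2b to 2.39 times for Tuba1b. Without it 4 isotypes were negative and 5 positive, and the log2 fold change was −0.46 for Tuba1b, −0.26 for Tubb5, 0.60 for Tubb2a, 0.41 for Tuba4a and 0.26 for Tuba1a. The GC content of the isotypes ranged from 51.2% to 57.9%, above the median of 50% of the tested genes. With each library's trends on GC content and length removed, Tuba1b stood at −0.70 (SE 0.20, adjusted p = 0.463 by limma), Tubb2a at 0.54 (SE 0.17, adjusted p = 0.536) and Tubb5 at −0.57 (SE 0.26, adjusted p = 0.663). On that scale the groups of all 3 did not overlap, beside 6.61% of 11709 genes higher and 8.47% lower without overlap. The other 6 isotypes lay between −0.15 and 0.16. The authors' deposited table, its direction taken from the FPKM, has Tuba1b at −0.71 (log2, SE 0.288, unadjusted p = 0.0138, adjusted p = 0.992 by DESeq2). Tubb5 stands there at −0.51 (SE 0.269, unadjusted p = 0.0575, adjusted p = 0.998 by DESeq2). At an adjusted p under 0.05 that table has 7 genes higher and 2 lower, and no isotype among them.

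**Figure D2:**
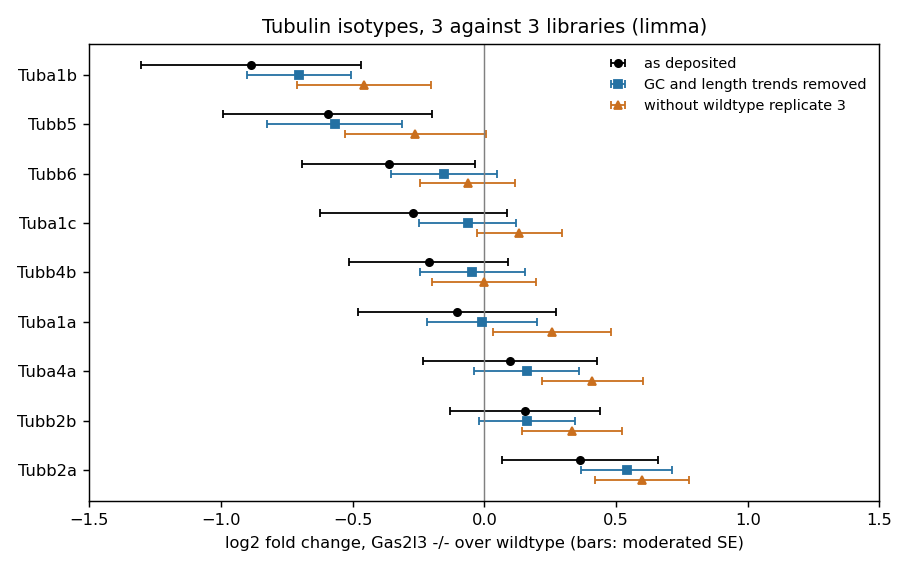
Log2 fold change of Gas2l3 -/- over wildtype for the 9 tested isotypes, with the moderated SE as bars, for the FPKM as deposited, with GC and length trends removed, and without the library labelled wildtype 3. Tuba1b and Tubb5 lie left of 0 and Tubb2a right of 0 in all 3, and none passed the test.

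As deposited, the groups overlapped in the level of every isotype but Tubb5, and in the share of the tubulin pool for 3 of 10. Shares are each isotype's percentage of the summed FPKM of the 10 isotypes in the same library. A library that is high for all isotypes by the same factor leaves them as they are, but the library labelled wildtype 3 was not high by 1 factor. Tubb5 made up 40.3%, 38.0% and 39.2% of the pool in Gas2l3 -/- hearts, against 44.6%, 45.7% and 45.8% in wildtype hearts. Tuba1b made up 8.25%, 10.5% and 8.07% in Gas2l3 -/- hearts, against 10.7%, 12.9% and 14.5% in wildtype hearts. For both isotypes every Gas2l3 -/- library lay below every wildtype library, the library labelled wildtype 3 included.

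Beside Tubb3, 4 isotypes with enough reads took the larger share in Gas2l3 -/- hearts without overlap. Tubb2a made up 6.38%, 6.41% and 6.51% in Gas2l3 -/- hearts, against 4.23%, 3.91% and 3.39% in wildtype hearts. Tubb2b made up 7.08%, 6.76% and 7.41% in Gas2l3 -/- hearts, against 5.48%, 5.29% and 3.99% in wildtype hearts. The 2 neighbours together held 13.5% ± 0.381 of the pool in Gas2l3 -/- hearts and 8.76% ± 1.23 in wildtype hearts (SD, n = 3 each). Tuba1a made up 12.8%, 14.6% and 14.4% in Gas2l3 -/- hearts, against 11.1%, 11.3% and 12.02% in wildtype hearts. Tuba4a made up 4.79%, 5.19% and 5.02% in Gas2l3 -/- hearts, against 3.55%, 3.65% and 3.53% in wildtype hearts. The groups of Tubb3 also did not overlap, at under 0.1% of the pool in every library and on few reads.

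**Figure D3:**
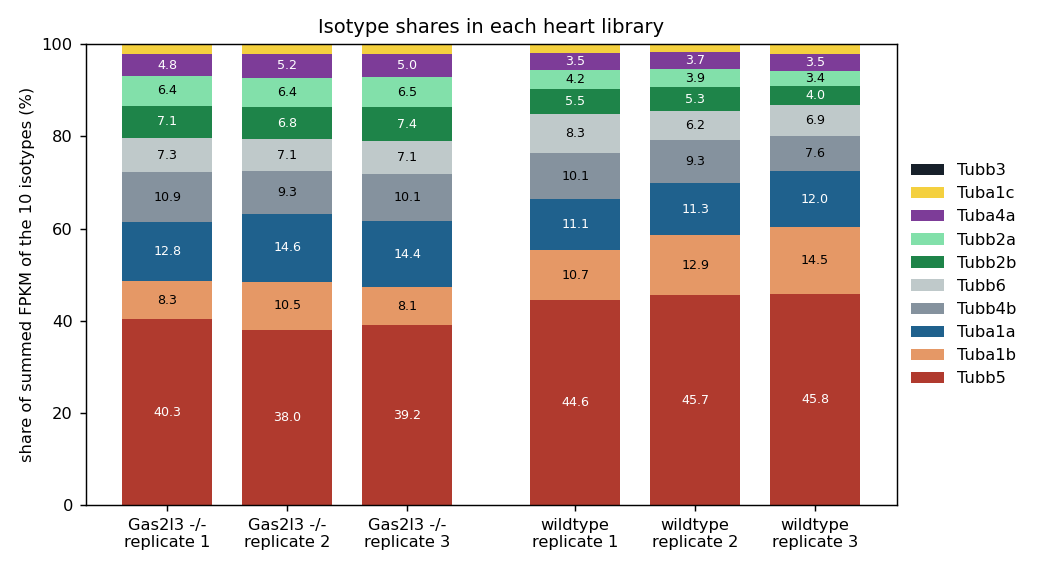
Share of each isotype in the summed FPKM of the 10 isotypes, in percent, 1 stacked bar per library, Gas2l3 -/- left and wildtype right. The lowest 2 blocks, Tubb5 and Tuba1b, are smaller in every Gas2l3 -/- library, and the Tubb2a, Tubb2b, Tuba1a and Tuba4a blocks are larger.

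Shares of the remaining isotypes overlapped. Tubb4b held 10.1% ± 0.810 in Gas2l3 -/- hearts and 9.001% ± 1.25 in wildtype hearts (SD, n = 3 each). Tuba1c and Tubb6 also overlapped. In all, 5 of 10 shares were higher and 2 lower without overlap, each with p = 0.1 in a two-sided exact permutation test, the smallest that 3 against 3 allows, and 0.143 after Benjamini-Hochberg adjustment over the 10 shares. This test therefore cannot take any share past 0.05 with 3 against 3. Shares of 1 pool are tied to each other, so a smaller Tubb5 share enlarges the rest by construction. For every tested gene the ratio to the summed tubulin FPKM was formed in the same way, and 11.0% of the 12121 genes were higher and 1.12% lower without overlap, where the isotypes had 4 higher and 2 lower of 9. Without the library labelled wildtype 3 there were 6 higher and 2 lower of the 10 shares. The difference was then −5.96 points for Tubb5 (−6.20 with it), −2.83 for Tuba1b (−3.75), 1.70 for Tubb2b (2.16) and 0.398 for Tubb4b (1.09).

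The alpha isotypes together made up 30.0% ± 2.26 in Gas2l3 -/- hearts and 29.7% ± 2.49 in wildtype hearts (SD, n = 3 each), overlapping with an exact permutation p = 0.7. Tuba1a, Tuba1b and Tuba1c together held 25.0% ± 2.06 in Gas2l3 -/- hearts and 26.1% ± 2.51 in wildtype hearts, with an exact permutation p = 0.6. The split within these 3 is the one that shared reads leave uncertain. Within the alpha family Tuba1b made up 29.8% ± 2.56 in Gas2l3 -/- hearts and 42.6% ± 3.04 in wildtype hearts. Within the beta family Tubb5 made up 55.9% ± 0.286 in Gas2l3 -/- hearts and 64.6% ± 3.17 in wildtype hearts. When recovered reads were used without division by length, 5 shares were higher and 1 lower without overlap, and Tuba1b overlapped.

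Ratios between isotypes were chosen after the values had been seen and are given as a description. Tuba1b over Tuba1a was 0.645, 0.718 and 0.560 in Gas2l3 -/- hearts, against 0.964, 1.14 and 1.21 in wildtype hearts. Tubb5 over the sum of Tubb2a and Tubb2b was 2.99, 2.89 and 2.81 in Gas2l3 -/- hearts, against 4.59, 4.97 and 6.21 in wildtype hearts. Neither ratio overlapped between the groups, also after removal of the GC and length trends. The ratio of alpha to beta overlapped, at 0.388, 0.479 and 0.420 in Gas2l3 -/- hearts, against 0.375, 0.419 and 0.476 in wildtype hearts.

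Markers of dividing cells were also lower in Gas2l3 -/- hearts. Their 16 genes summed to 299, 278 and 285 FPKM in Gas2l3 -/- hearts, against 496, 407 and 495 FPKM in wildtype hearts, without overlap, and none was at 0. Among the Gas2l3 -/- libraries these sums had the same order as the Tubb5 shares, but not as the Tuba1b shares. Among the wildtype libraries they had the order of neither. All 16 log2 fold changes were negative with a median of −0.66, also −0.66 without the library labelled wildtype 3, 8 of 16 did not overlap, beside 4.74% of all genes in that direction, and none was called. Cdc20, an activator of the anaphase-promoting complex, had 32.3, 33.0 and 35.4 FPKM in Gas2l3 -/- hearts, against 53.9, 55.7 and 98.1 FPKM in wildtype hearts. Ccnb2, a mitotic cyclin, had 32.5, 34.1 and 30.9 FPKM in Gas2l3 -/- hearts, against 51.9, 52.3 and 58.1 FPKM in wildtype hearts. Cdk1, the kinase that drives entry into mitosis, overlapped. The 8 macrophage markers summed to 54.8 to 98.2 FPKM in Gas2l3 -/- hearts and 31.2 to 45.01 FPKM in wildtype hearts, also without overlap. The skeletal muscle markers summed to 1193 to 1311 FPKM in Gas2l3 -/- hearts and 1343 to 3533 FPKM in wildtype hearts, without overlap. The sum is nearly all Ckm, a creatine kinase that heart muscle also makes, and Myod1 and Myf5, which define skeletal muscle cells, were at 0 in every library. All 3 tested members were negative and 2 did not overlap, beside 4.74% of all genes in that direction. Of the 8 listed, 5 were under 1 FPKM in every library. The part of the dividing-cell, macrophage and skeletal muscle lists in the isotype shares was not tested.

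**Figure D4:**
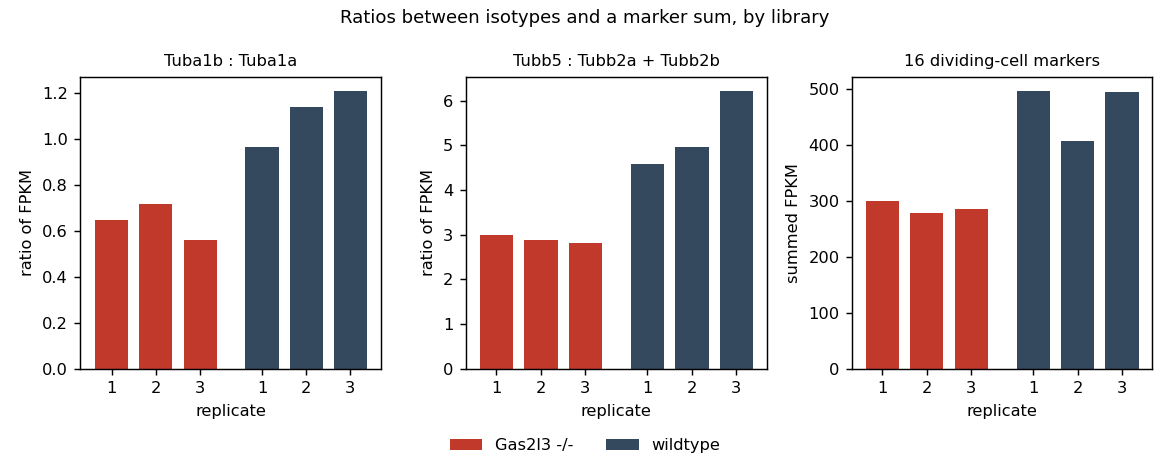
Bars from 0 for each library, Gas2l3 -/- left and wildtype right, of the FPKM ratios Tuba1b over Tuba1a and Tubb5 over Tubb2a plus Tubb2b, and of the summed FPKM of 16 dividing-cell markers. In each panel all 3 Gas2l3 -/- bars are shorter than all 3 wildtype bars.

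Genes that make, modify and organise tubulin were described by lists, and none of their members was called. The folding machinery had values of both signs. Of 8 tubulin folding cofactors, 4 were positive and 4 negative with a median of 0.10 (log2), or 0.038 without the library labelled wildtype 3. Of 8 subunits of CCT, the chaperonin that folds tubulin and actin, 5 were positive and 3 negative with a median of 0.29, or 0.09 without that library. Tbcel, a cofactor-like protein that destabilises tubulin, had 6.96, 4.70 and 6.69 FPKM in Gas2l3 -/- hearts, against 3.91, 4.41 and 2.70 FPKM in wildtype hearts, without overlap, as did 5.02% of all genes in that direction (log2 fold change 0.67, SE 0.28, adjusted p = 0.966 by limma). The CCT subunits Tcp1 and Cct4 had 0.51 and 0.49, but 0.10 and 0.11 without that library, and their groups overlapped. Of the 8 subunits 1 other was higher without overlap, beside the same 5.02% of all genes. Of 6 prefoldin subunits 3 were positive and 3 negative with a median of 0.18, which was −0.20 without the library labelled wildtype 3. The 6 genes of tubulin autoregulation were also split 3 to 3, with a median of −0.08. Of these 6 genes 1, Cnot11, was lower without overlap, beside 4.74% of all genes.

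Enzymes and proteins that act on finished microtubules had more negative than positive values. Of 15 tested modifying enzymes 5 were positive and 10 negative, with a median of −0.19, or −0.084 without the library labelled wildtype 3. Atat1, the acetyltransferase of alpha tubulin, had 7.74, 7.72 and 8.41 FPKM in Gas2l3 -/- hearts, against 8.61, 12.2 and 15.8 FPKM in wildtype hearts, without overlap (log2 fold change −0.55, SE 0.27, adjusted p = 0.966 by limma), and −0.35 without that library. It was the 1 of the 15 enzymes without overlap, beside 4.74% of all genes in that direction. Of 21 tested plus-end and stabilising proteins 5 were positive and 16 negative, with a median of −0.13, or −0.081 without that library. Their summed level was 365 to 422 FPKM in Gas2l3 -/- hearts and 424 to 543 FPKM in wildtype hearts. Tpx2, a spindle assembly factor, had 15.9, 11.7 and 14.9 FPKM in Gas2l3 -/- hearts, against 27.4, 18.3 and 21.3 FPKM in wildtype hearts. Prc1, which bundles microtubules of the spindle midzone, had 34.0, 26.2 and 28.6 FPKM in Gas2l3 -/- hearts, against 65.1, 37.9 and 35.5 FPKM in wildtype hearts. Both genes act in mitosis, and the groups of these 2 of 21 did not overlap, beside 4.74% of all genes.

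Of 12 tested destabilising and severing proteins 4 were positive and 8 negative with a median of −0.24, and −0.23 without the library labelled wildtype 3. Their summed level was 134 to 141 FPKM in Gas2l3 -/- hearts and 180 to 198 FPKM in wildtype hearts. Stmn1, which binds tubulin dimers and is high in dividing cells, had 59.8, 65.8 and 69.3 FPKM in Gas2l3 -/- hearts, against 91.2, 116 and 106 FPKM in wildtype hearts (log2 fold change −0.67, SE 0.27, adjusted p = 0.966 by limma). Its groups did not overlap, and neither did those of the mitotic kinesins Kif2c (−0.48) and Kif18b (−0.54, or −0.25 without that library), 3 of 12 beside 4.74% of all genes. In the other direction 1 of the 12 did not overlap, beside 5.02% of all genes. Of 13 genes of the gamma-tubulin complex, which starts new microtubules, 4 were positive and 9 negative with a median of −0.078, or −0.16 without that library, and the groups of all 13 overlapped. Their sum was 125 to 138 FPKM in Gas2l3 -/- hearts and 152 to 170 FPKM in wildtype hearts. The dividing-cell markers above were also lower in Gas2l3 -/- hearts, and their part in these sums was not tested.

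The genes most like the summed tubulin level, by Pearson's r of log2 values over the 6 libraries among 8373 genes, were Slc25a11 (0.998), Sphk2 (0.997), Thy1 (0.997), Tbc1d10b (0.997) and Rara (0.996). All 5 were highest in the library labelled wildtype 3, for instance Slc25a11, a mitochondrial carrier, with 172, 182 and 181 FPKM in Gas2l3 -/- hearts, against 172, 205 and 354 FPKM in wildtype hearts. Their GC content was 54.2% to 59.2%. The 6 points share libraries, depth and base composition, so these values are a description.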

How the data were processed

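Poly(A) RNA of 3 Gas2l3 -/- and 3 wildtype hearts was sequenced, per the labels. The authors deposited FPKM for each gene in every library. A second table, also deposited by the authors, holds their group comparison with fold changes and p-values, per the file headers. FastQC, DESeq2 and the build mm10 are named, per the submitters' processing notes, without versions. The aligner, counter, annotation and strand setting are not given in the sources used. The tables together gave back whole reads (100% of 94235 values within 0.01), and their totals are the depths given. Read numbers may include PCR copies and cover counting error only.

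Groups and replicate numbers came from the labels. The members and gene lists were chosen with earlier results of these data known. Limma 3.58.1 (R 4.3.3, intensity trend) tested log2(FPKM + 0.5) for 12121 genes with 1 FPKM or more in at least 3 libraries, with Benjamini-Hochberg adjustment and calls under 0.05. The pseudocount shrinks the fold changes of low genes. Planned count tests were not run because the deposited unit is FPKM; voom on the recovered reads was added after seeing the data. In an alternative, loess (span 0.3, degree 1) took GC and length trends out of each library over 11709 genes with GENCODE M21 values. A fit of degree 2 was added after the results of degree 1 had been seen. Library weights were estimated gene by gene, because the default method did not converge. Scripts were tested on simulated data.

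Libraries with the same replicate number were more alike than others, less clearly for number 3. Deviations of libraries with the same number from their group means correlated at 0.472, 0.443 and 0.186. The highest value with a library of another number was −0.22, 0.072 and −0.067. Deviations within a group cancel out, so a high value for the same number lowers the others by construction, and pairing was not tested. For number 1, GC trends were alike, with r = −0.481 in the Gas2l3 -/- library and −0.474 in the wildtype library. For number 3, GC trends had opposite signs, with r = −0.159 in the Gas2l3 -/- library and 0.702 in the wildtype library. The named genes were all 10 isotypes, Gas2l3, up to 3 genes of each list with the smallest p, the 3 highest markers and the 5 genes most like the tubulin sum. Coding ends of the alpha isotypes are not reported here.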

Additional observations from a re-analysis of the deposited data

How the results depend on the processing

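Across 20 alternative fits, no isotype was called. Log2 fold changes kept their sign for Tuba1b (−1.23 to −0.46), Tubb5 (−0.84 to −0.26), Tubb6 (−0.55 to −0.062), Tubb4b (−0.36 to −0.0014), Tubb2a (0.20 to 0.60) and Tubb2b (0.0087 to 0.33). Tuba1a turned to 0.077 with a common total, 0.076 with quantile normalization, 0.15 with library weights and 0.26 without the library labelled wildtype 3. Tuba1c turned to 0.047 with library weights, and leaving out 1 library gave −0.49 to 0.13, positive without the library labelled wildtype 3. For Tuba4a leaving out 1 library gave −0.14, without wildtype replicate 1, to 0.41. The cause was not tested. A common total moved the median of all genes to 0.15.

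Over all genes, 0 were called higher and 0 lower. With library weights 1 was called higher and 1 lower. With GC and length trends removed 1 was called lower by local linear loess, and 2 by local quadratic loess, which was run after the first had been seen. No isotype was among them, and Tuba1b and Tubb5 stood at −0.70 and −0.58 in the quadratic fit. At an unadjusted p under 0.05 limma had 394 genes, and leaving out 1 library gave 172 to 1472. On the deposited FPKM the replicate block changed no call. With the trends removed, the gene called lower was lost under the block, where 0 were called. For the isotypes the block changed no call, and Tuba1b kept −0.88 in the fit with the block (adjusted p = 0.782).

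The differences in share kept their direction for Tubb5 (−8.08 to −5.62 points), Tuba1b (−4.75 to −2.60), Tubb2a (2.08 to 2.86), Tubb2b (1.70 to 2.45), Tuba1a (2.11 to 3.06) and Tuba4a (1.32 to 1.52). Leaving out 1 library gave −0.416 to 0.623 points for Tubb6, −2.32 to 0.179 for Tuba1a, Tuba1b and Tuba1c together, and −0.66 to 0.019 on the log2 scale for the alpha sum. Depth limits Tubb3, with 3 to 13 reads.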

Other observations

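The 8 other tubulin genes listed, which leave out the gamma tubulins, were low in these hearts. Tubb4a, a beta form of brain, had 2.36, 2.25 and 2.92 FPKM in Gas2l3 -/- hearts, against 1.19, 2.47 and 4.34 FPKM in wildtype hearts. Tubd1, the delta tubulin of centrioles, had 6.21, 8.98 and 6.02 FPKM in Gas2l3 -/- hearts, against 6.19, 6.36 and 2.54 FPKM in wildtype hearts (log2 fold change 0.52, SE 0.36, adjusted p = 0.966 by limma), but 0.14 without the library labelled wildtype 3. Tube1, the epsilon tubulin of centrioles, had 1.59, 2.47 and 2.08 FPKM in Gas2l3 -/- hearts, against 2.19, 2.16 and 1.29 FPKM in wildtype hearts. The groups of all 3 overlapped. Tubal3 was listed at 0 in every library, and Tuba3a had 0 to 1 reads.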
